A study of Mus musculus with 31 samples.

Results

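Bortezomib is a drug that blocks the proteasome, the complex that degrades ubiquitin-tagged proteins. Its effect on ribosome occupancy was examined in S51A cells, which cannot mount the integrated stress response (ISR). Ribosome-protected fragments (RPFs) from 4 bortezomib-treated and 4 vehicle-treated S51A libraries were compared, which are 8 of the 31 libraries of the series. Of 20704 genes in the RPF table, the 9457 that passed edgeR's filter on low counts over the 15 RPF libraries were taken. Total RNA from the same groups (4 against 4 libraries) and the RPFs of S51 cells (4 bortezomib and 3 vehicle libraries) are given beside them.

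Both lines derive from mouse skin squamous cell carcinoma (SCC) keratinocytes with HRas G12V. The labels give Tgfbr2 as floxed (TgfbrII fl/fl), whereas the study lists both lines with the deleted gene (TgfbrII D/D). Endogenous Eif2s1, the gene for eIF2α, was ablated by CRISPR, and a myc-tagged eIF2α driven by the PGK promoter was supplied by lentivirus. It was wild type at serine 51 in S51 cells and carried alanine there in S51A cells. The genotypes were kept as clones grown from single cells, more than 1 per genotype, and the clone behind each library is not given in the sources used here. Cells received 100 nM bortezomib or DMSO as the vehicle, for 4.5 h according to the labels, while the study's text gives a slightly shorter time. Replicates are called technical in one place and independent in another, so p-values may measure only technical spread.

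The numbers in the present titles of S51A vehicle and S51 bortezomib point to each other's columns. A note to the series says that titles of these groups were exchanged while the data stayed, and the study's own count table names its columns the way this note does. The assignment of the note was used. Every S51A vehicle library then lay on one side of the leading principal component (-15.2 to -12.9) and every S51A bortezomib library on the other (12.4 to 15.3), and this component held 73.5% of the variance. Library correlations were 0.981 to 0.991 within the S51A groups and 0.958 to 0.970 between them. Eif2s1 RPF, in which footprints on the transgene and on the endogenous gene were not separated, lay at 213, 237, 213 and 259.8 CPM under vehicle and at 235, 215, 192 and 190.3 CPM under bortezomib (-0.15 ± 0.15, adjusted p = 0.532). CPM are counts per 1000000 of a library size scaled by TMM, and n is 4 libraries per S51A group. Fold changes are log2 of bortezomib over vehicle with their standard error, both from the quasi-likelihood fit in edgeR, and p-values were adjusted over all genes tested (Benjamini-Hochberg).

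Blocking the proteasome leaves damaged and short-lived proteins undegraded. Cells are known to answer by the heat shock factor HSF1, which induces chaperones, by NRF1, which induces proteasome subunits, by NRF2, which induces antioxidant enzymes, and by stabilized p53. The ISR is a separate arm. Its kinases phosphorylate serine 51 of eIF2α, which lowers general initiation and raises translation of mRNAs such as Atf4 whose upstream reading frames otherwise hold ribosomes back. The alanine of S51A cannot be phosphorylated, so that this switch is not available to S51A cells.

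Bortezomib changed RPFs in both directions in S51A cells. Footprints of 396 genes rose (4.19% of those tested) and those of 631 fell (6.67%). Rises and falls are relative to the other mRNAs of a library, because TMM scaling removes a change common to all. In separate puromycin assays the study reports lower global protein synthesis under bortezomib, at comparable rates in both lines. Here and throughout, a gene had to pass an adjusted p of 0.05 and a 1.5-fold change. The counts of list members given below are to be read against the 4.19% and 6.67%. At more than 2-fold, 147 rose and 209 fell, and at more than 4-fold 28 rose and 14 fell. The libraries of the groups did not overlap for 374 of the rising and 564 of the falling genes, against 28.1% of all genes tested. The median log2 fold change over all genes was -0.01.

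Most of this response was also present in the mRNA. Of the 395 rising genes with a total RNA value, 386 had more total RNA at an adjusted p below 0.05, with a median RPF log2 fold change of 0.86 and a median total RNA change of 0.76. Of the 628 falling genes, 590 had less total RNA, with medians of -0.86 and -0.70. By the stricter rule for total RNA, an adjusted p below 0.05 and 2-fold, 191 genes rose (1.63%) and 298 fell (2.55%). Of the 396 genes that rose in RPF, 120 were also called higher by that rule. Of the 631 that fell, 128 were also called lower. The counts of 386 and 590 asked for no fold, and the share of all tested genes passing likewise is not given. Across the 9424 genes tested in both, RPF and total RNA changes had a Pearson correlation of 0.86 and a Spearman correlation of 0.81, which is a description over genes measured in cells treated together.

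**Figure D1:**
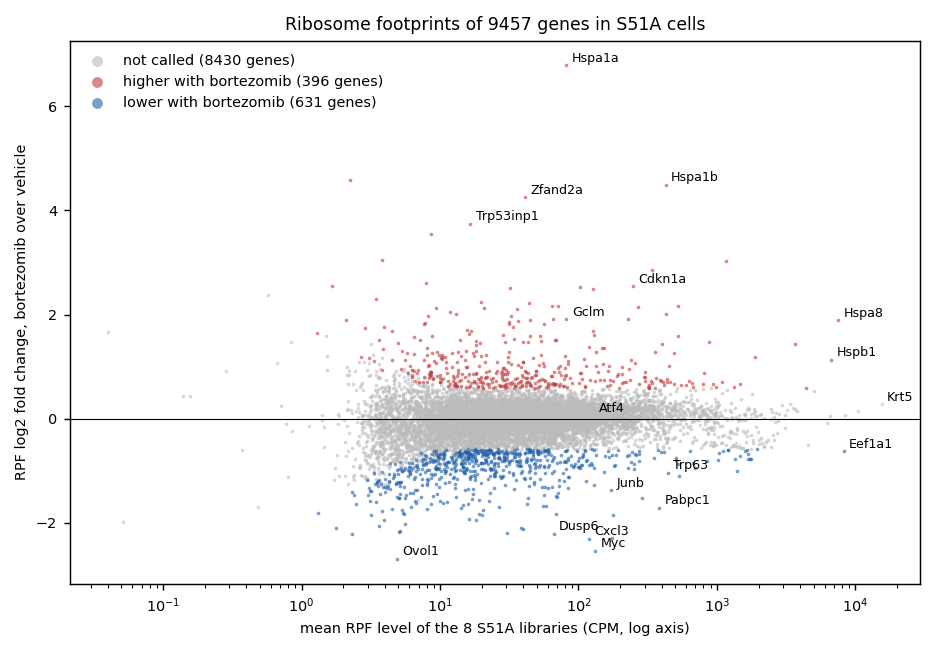
Each point is a gene tested in S51A RPF. The x axis is its mean level over the 8 libraries in CPM on a log scale, the y axis its log2 fold change, red for the 396 called higher and blue for the 631 called lower. The HSP70 family genes Hspa1a, Hspa1l (on few counts) and Hspa1b stand highest, Ovol1 and Myc lowest, and called genes occur at all levels.

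Hspa1a, an inducible HSP70 chaperone, had the largest rise, with 0.467, 0.422, 3.73 and 1.62 CPM in the vehicle libraries (1 to 9 counts) and 139.8, 170.1, 159 and 176 CPM in the bortezomib libraries (6.78 ± 0.23, adjusted p = 9.83e-15). Its neighbour Hspa1b had 34.6, 35.5, 38.6 and 36.7 CPM under vehicle and 596, 929.8, 664 and 1077 CPM under bortezomib (4.49 ± 0.18, adjusted p = 8.7e-14). The groups lay far apart for both. Their coding sequences are nearly identical, and only uniquely mapping reads were kept, so the split between Hspa1a, Hspa1b and Hspa1l is uncertain. Hspa1l, a relative of both, had RPF counts of 0, 0, 0 and 2 under vehicle and of 14, 14, 2 and 13 under bortezomib. This is a ratio of 30.99 with an exact 95% counting interval of 8.07 to 264. Its total RNA counts were 51 to 73 under vehicle and 19 to 25 under bortezomib. Those of Hspa1a were 49 to 60 and 5789 to 6600, so that mRNA and footprints of Hspa1a moved alike.

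Zfand2a (AIRAP), a zinc finger protein that binds the proteasome under arsenite or proteasome stress, rose from 4.21, 3.59, 3.73 and 4.66 CPM to 87.6, 85.8, 66.6 and 72.3 CPM (4.25 ± 0.18, adjusted p = 1.99e-13). The lowest treated library lay far above the highest vehicle library. Trp53inp1, a p53 target linked to autophagy and cell death, rose from 1.87, 2.96, 0.829997 and 2.64 CPM to 35.8, 26.3, 28.1 and 34.05 CPM (3.75 ± 0.24, adjusted p = 2.56e-10). Nkx2-9, a homeobox factor, and Inka2, an inhibitor of the kinase PAK4, rose by 3.54 ± 0.38 and 2.60 ± 0.24. Their vehicle libraries lay at 0.415 to 1.69 and at 1.48 to 2.804 CPM. Nkx2-9 had 19 vehicle and 154 treated counts in all.

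Ovol1, Myc and Dusp6 were among the genes with falls of more than 4-fold. Ovol1, a zinc finger repressor of epidermal progenitor genes, had 9.35, 8.45, 9.13 and 6.896 CPM under vehicle and 1.61, 0.487, 2.601 and 0.387 CPM under bortezomib (-2.69 ± 0.36, adjusted p = 1.14e-05), with 12 counts in all 4 treated libraries together. Myc, the growth-promoting transcription factor, fell from 243, 241, 221 and 196 CPM to 36.7, 36.5, 36.9 and 44.9 CPM (-2.53 ± 0.14, adjusted p = 2.38e-11). Dusp6, a phosphatase that dampens ERK, fell from 127, 114, 92.5 and 103 CPM to 20.9, 23.4, 17.2 and 31.7 CPM (-2.21 ± 0.16, adjusted p = 1.08e-09). No treated library reached a vehicle library in any of them. Jade2, Kctd15, Pik3ip1 and Mmp24 fell too (log2 fold changes -2.19, -2.17, -2.21 and -2.07), from vehicle levels of 45.3 to 55.6, 5.27 to 10.7, 3.32 to 4.26 and 4.65 to 7.48 CPM. Pik3ip1 and Mmp24 had 8 and 13 treated counts in all.

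H2-Bl, a class I histocompatibility gene with close relatives in the genome, had 331, 129, 501 and 205 CPM under vehicle and 115, 36.1, 30.7 and 44.5 CPM under bortezomib (-2.29 ± 0.47, adjusted p = 0.0012). Its total RNA counts were 0 or 1 in every S51A library while its RPF counts ran from 59 to 1208, and its RPFs rose in S51 cells (log2 fold change 2.28). Reads shared with its relatives were not tested as a source.

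**Figure D2:**
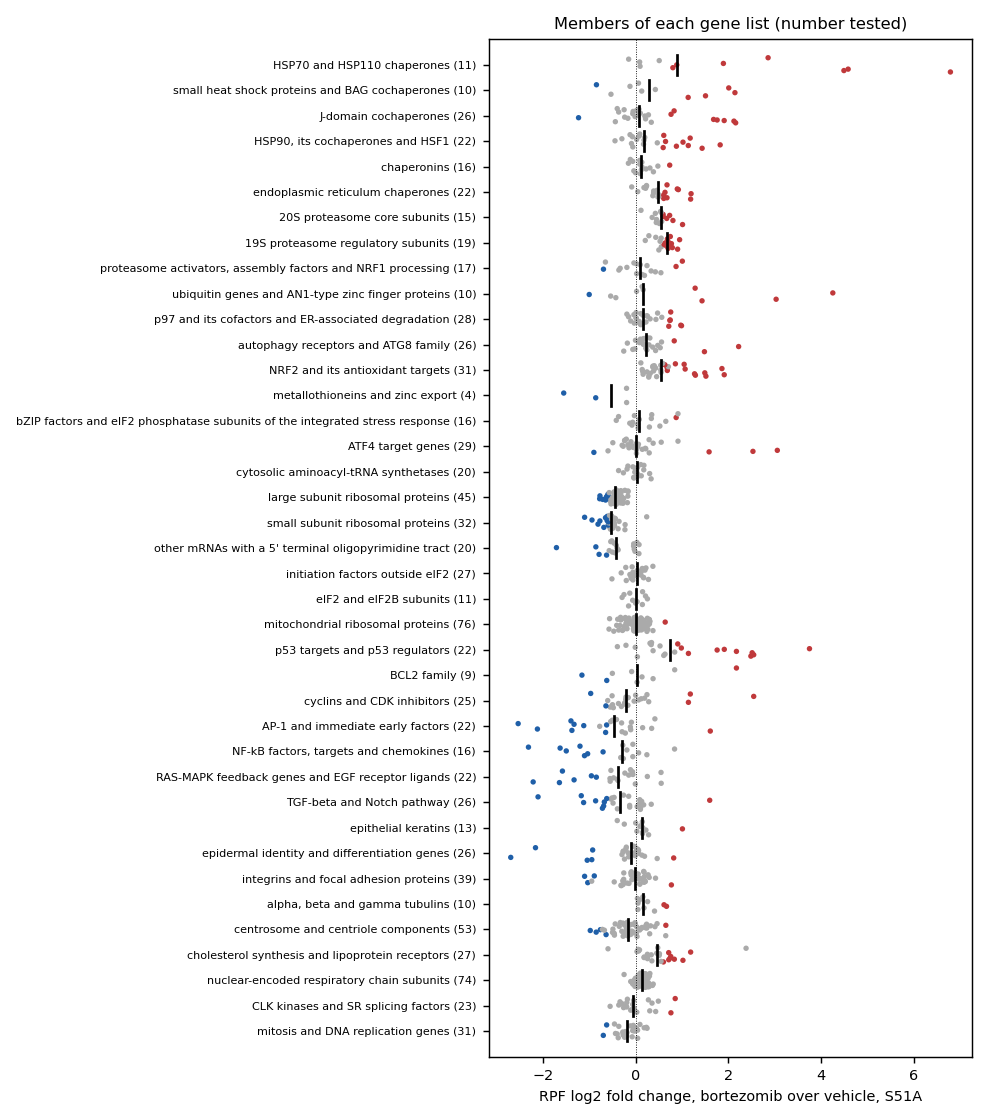
Each row is a gene list with the number of members tested, and each point a member's RPF log2 fold change in S51A, red where called higher, blue where called lower and grey otherwise, with a bar at the median. Chaperone, proteasome, NRF2 and p53 lists lie to the right, ribosomal proteins and growth factor signalling lists to the left, and initiation factors at 0.

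Chaperones formed a large block of the response. Among the 11 tested HSP70 and HSP110 genes (13 listed) 7 rose and none fell, with a median log2 fold change of 0.89. Besides the inducible Hspa1a and Hspa1b these were the constitutive Hspa8, the disaggregase cofactor Hsph1 and the relatives Hspa2 and Hspa4l. The remaining one was Hspa1l, which rested on few counts and had fewer total RNA counts under bortezomib. Hsph1 RPF lay at 74.8, 86.8, 65.6 and 99.6 CPM under vehicle and at 474, 622, 479 and 819 CPM under bortezomib (2.85 ± 0.17, adjusted p = 6.42e-11). Hspa8, among the most occupied mRNAs of the cells, went from 2622, 3152, 2861 and 4156 CPM to 11356, 11722, 11087 and 13319 CPM (1.89 ± 0.11, adjusted p = 5.03e-11). The groups were apart in both. The mitochondrial Hspa9 and the cytosolic Hspa4 did not pass (0.09 and 0.10).

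Cochaperones followed. Among J-domain proteins, which hand substrates to HSP70, 7 of 26 tested (28 listed) rose and 1, Dnajb14, fell (-1.23 ± 0.34), with a median of 0.07. The risers were led by Dnaja1 (2.16 ± 0.16, adjusted p = 1.5e-09), Dnaja4 (2.12 ± 0.29) and Dnajb1 (1.91 ± 0.11). Dnajb1 lay at 111, 101, 81.3 and 92.7 CPM under vehicle and at 315, 361, 337 and 436 CPM under bortezomib, and Dnaja1 at 175 to 223 and 784 to 949 CPM. Of 10 tested (14 listed) small heat shock proteins and BAG cochaperones 4 rose and 1 fell (median 0.28). Cryab, which holds unfolding proteins, rose from 98.1, 116, 100.02 and 80.3 CPM to 267, 518, 402 and 556 CPM (2.14 ± 0.19, adjusted p = 2.89e-08). Bag3 and Hspb8, which act together in chaperone-assisted autophagy, rose by 2.01 ± 0.16 and 1.51 ± 0.15. The abundant Hspb1 rose from 3761 to 4503 CPM to 6679 to 11769.6 CPM (1.13 ± 0.16), while Bag5 fell (-0.84 ± 0.15, adjusted p = 0.000301). In Cryab, Bag3 and Hspb1 alike, bortezomib replicates 2 and 4 were higher than replicates 1 and 3.

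In the HSP90 group 9 of 22 rose and none fell (median 0.19). Hsp90aa1, the inducible HSP90, rose from 2017, 2069, 1748 and 2080.1 CPM to 5258, 5438, 4790.3 and 5888 CPM (1.43 ± 0.15, adjusted p = 3.33e-07), its cochaperone Ahsa1 by 1.14 ± 0.09 and Chordc1 by 1.02 ± 0.15. The constitutive Hsp90ab1 rose less (0.59 ± 0.06, adjusted p = 6.84e-07), and this call was lost in some alternatives. Footprints of Hsf2, a heat shock factor related to HSF1, rose (1.18 ± 0.18), and Hsf1 did not pass the test (-0.30 ± 0.17, adjusted p = 0.225). Among 16 chaperonin genes only Hspe1, the mitochondrial cochaperonin, rose (0.73 ± 0.17, adjusted p = 0.00393). Its partner Hspd1 had 0.48 (adjusted p = 0.00683), under the fold required.

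In the endoplasmic reticulum 9 of 22 tested chaperone genes (23 listed) rose and none fell (median 0.49). Hspa5 (BiP), its main HSP70, lay at 948, 1141, 871 and 1626 CPM under vehicle and at 2174, 2615, 2215 and 3446 CPM under bortezomib (1.19 ± 0.16, adjusted p = 1.25e-05), and its cochaperone Dnajb9 rose by 1.20 ± 0.25. Replicate 4 was the highest of both groups for Hspa5. Xbp1, the transcription factor of the unfolded protein response, rose (0.68 ± 0.16, adjusted p = 0.00308) with overlapping libraries, and Herpud1 did not pass (0.18 ± 0.26, adjusted p = 0.683).

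Genes of the heat shock group are known to carry heat shock elements, alternating GAA and TTC units separated by any 2 letters. A run of 4 such units with at most 1 of its 12 letters different was looked for on both strands of the window from 250 bases before to 50 after each start site, the number of letters allowed to differ having been chosen after promoters were seen. Of the 7717 tested genes with a RefSeq promoter 0.428% held one. Among the rising genes 7 of 329 did (2.13%) and among the falling 1 of 487 (0.205%). The 7 were Hspa1a, Hspa1b, Hsph1, Hspe1, Dnaja4, Chordc1 and Nploc4. The sequences of 5 of the 7 are shown. These are the genes with the largest changes among the 7, and Hspe1, the single chaperonin gene that rose. Chaperones outside the 7, such as Dnaja1 and Cryab, rose more than Dnaja4. Matched units are in capitals (RefSeq, GRCm38.p6, 5′ to 3′ on the gene's strand).
Hspa1a (chr17:34972229-34972294, minus strand): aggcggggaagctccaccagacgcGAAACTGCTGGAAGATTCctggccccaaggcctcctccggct
Hspa1b (chr17:34959311-34959376, minus strand): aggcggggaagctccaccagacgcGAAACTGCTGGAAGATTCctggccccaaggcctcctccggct
Hsph1 (chr5:149636328-149636393, minus strand): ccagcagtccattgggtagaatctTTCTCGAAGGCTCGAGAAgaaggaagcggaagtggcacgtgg
Hspe1 (chr1:55088035-55088100, plus strand): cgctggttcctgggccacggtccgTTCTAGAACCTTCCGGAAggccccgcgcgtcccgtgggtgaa
Dnaja4 (chr9:54699435-54699500, plus strand): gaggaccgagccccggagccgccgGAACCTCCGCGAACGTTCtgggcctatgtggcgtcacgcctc

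The stretches of Hspa1a and Hspa1b are identical, and their whole 300-base windows differ at 4 positions. A match describes letters and not binding.

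The mRNAs of the proteasome, the target of the drug, gained footprints by modest amounts. Of 15 tested subunits of the 20S core (17 listed) 6 passed and of 19 subunits of the 19S regulator 12 passed, all upward, with medians of 0.55 and 0.67. Psma1, a ring subunit of the core, lay at 280.4, 306, 289.7 and 323 CPM under vehicle and at 632, 648, 559 and 581 CPM under bortezomib (1.01 ± 0.12, adjusted p = 2.44e-06). Psmd11, of the lid, lay at 162, 160.3, 151 and 158 CPM and 302, 297, 322 and 299 CPM (0.95 ± 0.09, adjusted p = 9.79e-08). Treated and vehicle libraries did not overlap in either. Psmc2, an ATPase of the base, had 0.91 ± 0.07, adjusted p = 7.99e-09. Psmb5, the subunit that bortezomib binds, went from 232, 232, 225 and 235 CPM to 316, 308, 296 and 321 CPM without overlap, a log2 fold change of 0.43 ± 0.07 that is under the fold required (adjusted p = 8.3e-05). None of these subunits was called in total RNA, where the rule asks for 2-fold, and their total RNA medians were 0.56 and 0.64.

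Nfe2l1, which encodes NRF1, the factor that induces proteasome genes and is itself processed from a proteasome substrate, had 126, 114, 99.6 and 102 CPM under vehicle and 108, 106, 112 and 120.3 CPM under bortezomib (0.02 ± 0.10, adjusted p = 0.921). The groups overlapped. Among 17 activators, assembly factors and NRF1-processing genes 2 rose and 1 fell. The 2 were Ubxn4 (1.01 ± 0.11), a p97 adaptor at the endoplasmic reticulum, and Psmd5 (0.87 ± 0.10), a chaperone of the 19S base. The core assembly chaperone Psmg2 fell (-0.69 ± 0.11, adjusted p = 5.99e-05).

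Among genes that encode ubiquitin, Ubb, a polyubiquitin gene, lay at 238, 235, 216 and 186 CPM under vehicle and at 425, 656, 599 and 681 CPM under bortezomib (1.43 ± 0.13, adjusted p = 4.8e-08). The treated libraries were all above the vehicle libraries, with replicate 1 the lowest of them. Rps27a, which encodes ubiquitin fused to a ribosomal protein, had an RPF log2 fold change of -0.54 that did not pass and a TE change of -0.84 that was called lower. Zfand5, a relative of Zfand2a, rose (1.28 ± 0.15, adjusted p = 1.32e-06), and Zfand1 fell from 6.22 to 8.41 CPM to 1.46 to 5.201 CPM (-0.999 ± 0.32, adjusted p = 0.0294). The Zfand1 call was lost in 4 alternatives. Of 10 tested genes of this list (11 listed) 4 rose and 1 fell. p97 is the ATPase that extracts ubiquitinated proteins, and 6 of 28 tested (29 listed) of its cofactors and of endoplasmic reticulum degradation genes rose (median 0.16), among them Nploc4 (0.99 ± 0.08) and Ufd1 (0.97 ± 0.12), the heterodimer that loads p97.

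Of 26 tested autophagy genes (29 listed) 3 rose and none fell (median 0.23). Sqstm1 (p62), the receptor that gathers ubiquitinated aggregates, lay at 493, 468, 519.6 and 368 CPM under vehicle and at 1214, 1364, 1294 and 1286 CPM under bortezomib (1.48 ± 0.10, adjusted p = 1.08e-09). Gabarapl1, an ATG8 family member, rose from 13.1, 16.7, 14.9 and 16.4 CPM to 74.4, 76.02, 76.5 and 64.6 CPM (2.22 ± 0.12, adjusted p = 2.98e-11). The groups were apart in both. Map1lc3b did not reach the fold required (0.53 ± 0.10, adjusted p = 0.000376), and Atg14 (0.83 ± 0.29, adjusted p = 0.0493) lost its call in several alternatives. Without S51A vehicle replicate 2 the list had 5 rising members.

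Antioxidant genes of the NRF2 pathway formed another rising group. Of 31 tested genes 12 rose and none fell, and all 31 had a positive log2 fold change (median 0.54). Gclm, the regulatory subunit of glutathione synthesis, lay at 35.04, 32.7, 38.6 and 32.2 CPM under vehicle and at 131, 132, 130.03 and 124 CPM under bortezomib (1.91 ± 0.11, adjusted p = 4.58e-11), and the catalytic subunit Gclc had 1.29 ± 0.11, adjusted p = 2.24e-08. Txnrd1, thioredoxin reductase, lay at 307, 266, 291 and 277 CPM and 737, 709.5, 622 and 678 CPM (1.27 ± 0.08, adjusted p = 6.42e-11). All 4 treated libraries lay well above the vehicle libraries in each. Hmox1, the haem-degrading enzyme, rose from 31.5 to 38.8 CPM to 92.5 to 110.1 CPM (1.51 ± 0.11), less than in S51 cells (2.26, difference -0.75, adjusted p = 0.0177). Osgin1 and Srxn1 rose by 1.86 ± 0.16 and 1.49 ± 0.13. Nfe2l2, which encodes NRF2 itself, did not pass (0.28 ± 0.10, adjusted p = 0.0534), nor did the cystine transporter Slc7a11 (0.16 ± 0.13, adjusted p = 0.409), which is also a target of ATF4.

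The antioxidant response element, TGACNNNGC, was looked for on both strands of the same windows, with no letter allowed to differ. It was held by 17.1% of all tested genes with a promoter, 19.5% of the rising genes and 10 of 25 NRF2-list genes (40%). The elements of Gclm and Txnrd1, the enzymes described above, and of Srxn1 are shown in capitals (RefSeq, GRCm38.p6).
Gclm (chr3:122245411-122245443, plus strand): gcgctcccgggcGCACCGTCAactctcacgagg
Txnrd1 (chr10:82859102-82859134, plus strand): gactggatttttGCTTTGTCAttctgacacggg
Srxn1 (chr2:152105540-152105560, plus strand): gggcagtgggcaGCTAGGTCA

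Genes of metal handling included falling members. Slc30a1, the zinc exporter, fell from 25.2, 21.96, 31.5 and 23.7 CPM to 10.95, 6.82, 5.72 and 9.67 CPM (-1.55 ± 0.20, adjusted p = 5.31e-06), and the metallothionein Mt2 fell from 634, 643, 896 and 515 CPM to 397, 366, 413 and 303 CPM (-0.86 ± 0.17, adjusted p = 0.000792). Mt1 overlapped between the groups (-0.19 ± 0.15, adjusted p = 0.415), and the zinc-sensing factor Mtf1 did not pass (-0.19).

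The genes by which the ISR is usually read mostly failed to pass the test in these cells. Atf4, whose translation is released by phosphorylated eIF2α, had 107, 116, 129 and 151 CPM under vehicle and 108, 141, 137 and 141 CPM under bortezomib (0.06 ± 0.11, adjusted p = 0.778). The groups overlapped throughout. In S51 cells Atf4 RPF rose by 1.46, and the difference between the genotypes was -1.40 ± 0.16 (adjusted p = 4.15e-05). Atf5 had 13.1, 12.5, 15.8 and 17.2 CPM and 14.2, 17.1, 19.8 and 22.1 CPM (0.30 ± 0.24, adjusted p = 0.414), against 1.72 in S51 (difference -1.42, adjusted p = 0.0124). Both mRNAs carry upstream reading frames.

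Ddit3 (CHOP), a pro-death factor, had 6.07, 5.07, 5.81 and 6.29 CPM under vehicle and 2.26, 11.2, 8.84 and 12.4 CPM under bortezomib (0.52 ± 0.35, adjusted p = 0.322). Bortezomib replicate 1 lay below the vehicle libraries and the other three above them, and Ddit3 was called higher in 1 alternative. The difference from S51 (2.94) was -2.42 (adjusted p = 0.00735). Ppp1r15a (GADD34), the stress-induced eIF2 phosphatase subunit, lay at 1.87, 2.11, 1.24 and 2.84 CPM and 3.54, 2.92, 3.64 and 3.48 CPM (0.65 ± 0.34, adjusted p = 0.198), against 2.77 in S51 (difference -2.12, adjusted p = 0.0195). Its treated libraries all lay above its vehicle libraries, on 31 vehicle and 33 treated counts in all. Groups without overlap were found for 28.1% of all genes tested. Of 16 tested genes of this list (17 listed) 1 rose, Eif2ak3, which encodes the ISR kinase PERK (0.87 ± 0.18, adjusted p = 0.0014). The median was 0.07, whereas in S51 6 rose and 1 fell with a median of 0.44. Over all genes tested 7.38% rose and 11.2% fell in S51. Cebpb did not pass (-0.13), and Atf3 had 0 to 6 RPF counts in the S51A libraries and was not tested.

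ATF4 targets split. Of 29 tested (32 listed) 3 rose and 1 fell (median 0.02), against 10 rising in S51, where 7.38% of all genes tested rose. Ddit4, an inhibitor of mTORC1, lay at 21.96, 34.4, 37.3 and 26.97 CPM under vehicle and at 125, 199.8, 170.1 and 209 CPM under bortezomib (2.53 ± 0.18, adjusted p = 1.07e-09), and Sesn2, which also restrains mTORC1, lay at 18.2, 19.9, 26.97 and 24.1 CPM and 60.2, 75.5, 51.5 and 80.1 CPM (1.58 ± 0.16, adjusted p = 1.42e-07). Every treated library exceeded every vehicle library in both. Gdf15, a stress cytokine, had 2 to 3 counts in the vehicle libraries and 9 to 26 in the bortezomib libraries, a ratio of 8.65 with a 95% counting interval of 4.53 to 18.2. These are also known p53 targets, and S51 gave 2.52, 1.85 and 4.37. Chac1, which degrades glutathione, fell from 25.7, 28.7, 43.6 and 37.5 CPM to 12.2, 19.98, 17.2 and 23.99 CPM (-0.90 ± 0.22, adjusted p = 0.00439) while it rose in S51 (0.69, difference -1.59, adjusted p = 0.00465). The amino acid synthesis genes Asns (0.02), Psat1 (0.02) and the pseudokinase Trib3 (0.29), did not pass, and none of 20 aminoacyl-tRNA synthetases was called in RPF.

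**Figure D3:**
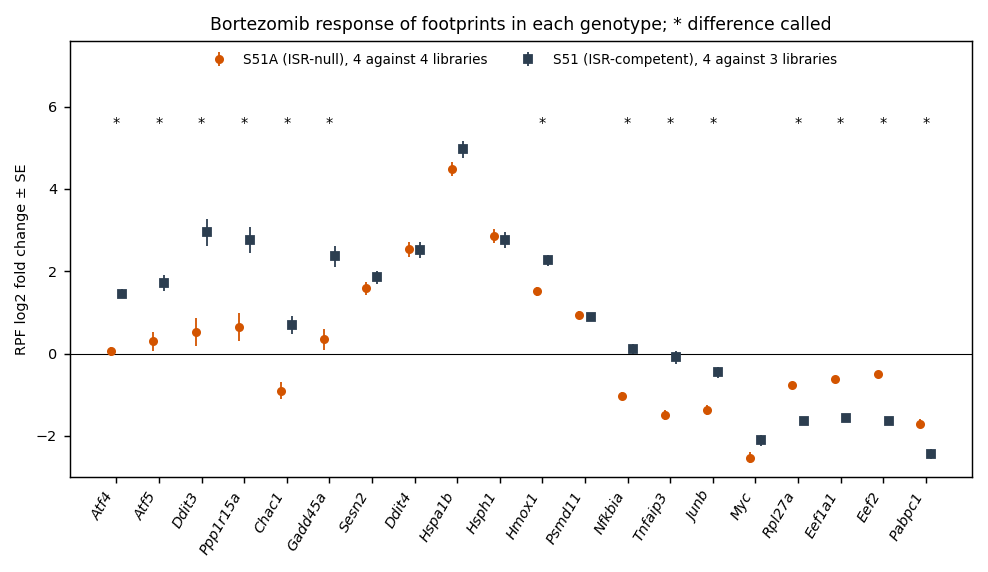
RPF log2 fold change with its standard error for genes named in the text, orange circles for S51A and dark squares for S51, with a star where the difference between the genotypes was called. Atf4, Atf5, Ddit3 and Ppp1r15a lie within 0.65 of 0 in S51A and above 1.4 in S51, Hspa1b and Hsph1 lie close together, and the footprints of ribosomal and elongation factor mRNAs on the right fell less in S51A.

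The mRNAs of the translation machinery were the group whose footprints parted from their mRNA. Translational efficiency (TE) is the change of RPF relative to total RNA, tested as an interaction in 1 model over all 31 libraries. TE fell for 85 genes (0.902% of 9424 tested) and rose for 8 (0.0849%), and 63 of the 85 were cytosolic ribosomal proteins. Adding the other mRNAs listed as carrying a 5′ terminal oligopyrimidine (TOP) tract, the pyrimidine run through which mTORC1 and LARP1 are known to control these mRNAs, made 73 of the 85. Among large subunit proteins TE fell for 35 of 45 (47 listed) and among small subunit proteins for 28 of 32, with TE medians of -0.71 and -0.83, and none rose.

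RPF calls were fewer than TE calls, with total RNA above its vehicle level. RPF fell for 7 of 45 large and 10 of 32 small subunit genes and rose for none (RPF medians -0.44 and -0.53), while the total RNA medians were 0.28 and 0.29. Rpl27a lay at 2229, 2158, 2153 and 2153 CPM under vehicle and at 1445, 1239, 1198 and 1221 CPM under bortezomib (-0.77 ± 0.07, adjusted p = 4.34e-08, TE -1.04). All treated libraries of this gene lay below the vehicle libraries, and replicate 1 was the highest of them. Rps20 fell further (-0.94 ± 0.14, adjusted p = 3.62e-05), and Rps27 had a lower value at 12.2 to 46.7 CPM (-1.10 ± 0.35) with overlapping groups, a call lost in 7 alternatives. Rpl7a, a highly occupied mRNA, had an RPF change of -0.18 and a TE of -0.48, neither called. Many of these genes have processed pseudogenes, so counts of uniquely mapping reads are uncertain.

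Bortezomib replicate 1 stood apart for these mRNAs. It had the highest footprints of the 4 treated libraries in 64 of the 77 ribosomal protein genes, against 2472 of all 9457 genes. Without it RPF fell for 17 small subunit and 10 large subunit genes, the TE medians were -0.89 and -0.75, and TE fell for 67 of the 77. Without S51A bortezomib replicate 4, or S51A vehicle replicate 1 or 3, RPF fell for 6 small subunit genes.

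Elongation factors and poly(A)-binding proteins had lower TE as well. Pabpc1, which coats poly(A) tails, lay at 604, 606, 508 and 635 CPM under vehicle and at 203, 194, 142 and 180.3 CPM under bortezomib (-1.71 ± 0.11, adjusted p = 2.56e-10), with total RNA at -0.01 and a TE of -1.69 (adjusted p = 4.88e-11). Its relative Pabpc4 had 62.1, 58.1, 63.5 and 64.7 CPM and 28.995, 20.5, 29.1 and 22.8 CPM, total RNA at 0.47 and TE at -1.75. The groups did not overlap in either. Eef1a1, which delivers aminoacyl-tRNA, lay at 10226, 10154, 9691 and 9930.2 CPM and 7319.8, 6229, 6258 and 6122 CPM (-0.63 ± 0.07, adjusted p = 1.16e-06), with TE at -1.18. Here too the groups were apart, with replicate 1 the highest of the treated libraries. Eef2, the translocase, had an RPF change of -0.50 ± 0.07 against a total RNA change of 0.68, and a TE of -1.18 (adjusted p = 6.75e-13). Eef1b2 and Tpt1 had TE changes of -1.19 and -1.15. Of 20 other TOP mRNAs TE fell for 10 and RPF for 4. Npm1, a nucleolar chaperone on that list, did not pass in either (RPF -0.04, TE -0.23).

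Of 27 initiation factors outside eIF2 and 11 eIF2 and eIF2B subunits none was called in RPF or TE, with RPF medians of 0.03 and 0.00. Eif4a1 had 3066, 3074, 2971 and 3103 CPM and 3527, 3162, 3089.5 and 3008 CPM (0.07 ± 0.10, adjusted p = 0.685). Of 76 mitochondrial ribosomal proteins 1 rose, Mrps6 (0.64 ± 0.13, adjusted p = 0.000979), with a median of 0.00 and no TE call. Promoters of the mitochondrial genes held no TOP tract by the rule below.

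A TOP tract was scored where the annotated start site was a C followed by at least 4 pyrimidines. It was found in 2.92% of 7717 promoters, in 14 of 62 genes with lower TE (22.6%), in 7 of 33 large (21.2%) and 7 of 25 small subunit genes (28%) and in 0 of 67 mitochondrial ribosomal protein genes. Annotated starts that are a few bases off miss a tract, so these are shares of windows with these letters. The tracts of 4 ribosomal protein mRNAs with lower TE and of Eif3f (TE -1.07), a TOP mRNA that encodes an initiation factor subunit, are shown in capitals with 10 bases before the start.
Rps18 (chr17:33955646-33955675, minus strand): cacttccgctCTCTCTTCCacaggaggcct
Rps27 (chr3:90213629-90213658, minus strand): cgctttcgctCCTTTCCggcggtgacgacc
Rpl14 (chr9:120571507-120571536, plus strand): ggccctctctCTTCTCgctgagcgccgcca
Rps6 (chr4:86857348-86857377, minus strand): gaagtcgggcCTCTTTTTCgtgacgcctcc
Eif3f (chr7:108934405-108934434, plus strand): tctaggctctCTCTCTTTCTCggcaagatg

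Genes with higher TE were few. Zfand2a gained more footprints than mRNA (total RNA 3.09, TE 1.17, adjusted p = 0.000349), and so did Mdm2 (total RNA 1.82, TE 0.66, adjusted p = 0.000138). Vmp1 (TE 0.77), Fut8 (TE 0.997), Alkbh1 (TE 0.97) and the histone gene H2aw (TE 0.87) were called with total RNA at -0.56, -0.57, -0.35 and -1.14 and RPF changes that did not pass. The TE call was lost in 6 alternatives for Alkbh1, in 4 for Fut8 and in 4 for H2aw, for Alkbh1 and Fut8 also with a block on the lysate. By the rule of an RPF call with a TE change above 1.5-fold the same way, 20 genes were translationally higher (0.212%) and 61 lower (0.647%). Outside the ribosome, Zfp532 fell in TE (-1.64) on 89 vehicle and 17 treated counts.

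**Figure D4:**
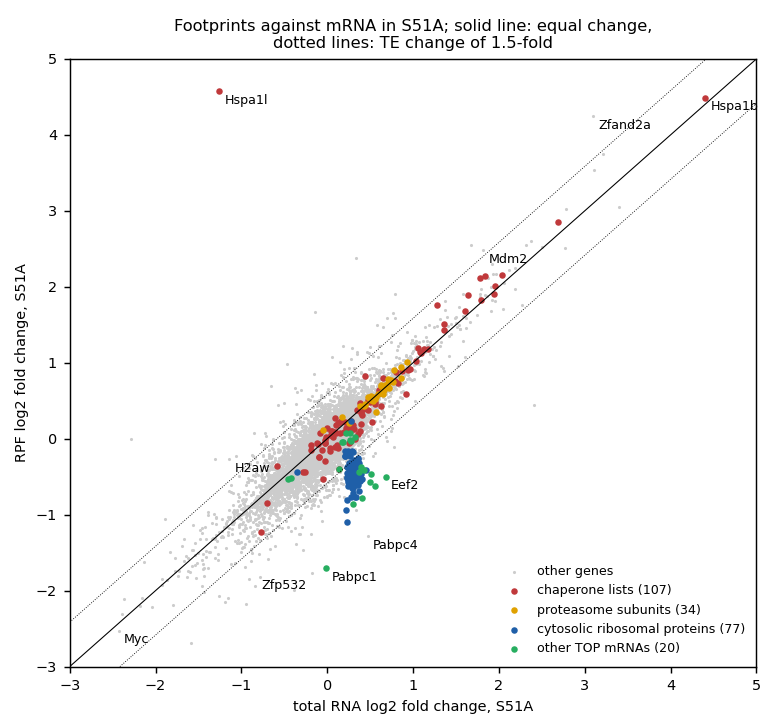
Total RNA log2 fold change on the x axis and RPF log2 fold change on the y axis for 9424 genes tested in both in S51A, with 1 gene outside the axes. Chaperones (red), apart from Hspa1l, and proteasome subunits (yellow) lie along the line of equal change, whereas most ribosomal proteins (blue) and other TOP mRNAs (green) lie below it at a positive total RNA change.

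Targets of p53 included many risers. Of 22 tested 10 rose and none fell, with a median of 0.74. Cdkn1a (p21), an inhibitor of cyclin-dependent kinases, lay at 76.2, 78.98, 66.4 and 66.5 CPM under vehicle and at 408, 432, 392 and 449 CPM under bortezomib (2.54 ± 0.13, adjusted p = 6.16e-12). Mdm2, the ubiquitin ligase of p53, went from 37.8, 40.97, 36.1 and 39.3 CPM to 239, 226, 186 and 216 CPM (2.48 ± 0.11, adjusted p = 2.5e-13), and Btg2, an antiproliferative factor, from 10.3, 10.8, 9.96 and 7.71 CPM to 47.7, 57.5, 49.4 and 64.2 CPM (2.51 ± 0.18, adjusted p = 1.08e-09). No libraries overlapped. Pmaip1 (NOXA), a BH3-only death protein, rose by 2.17 ± 0.15. Trp53 itself had 367, 435, 373 and 399 CPM and 376, 391, 401 and 452 CPM (0.04 ± 0.09, adjusted p = 0.806), and the junction protein Perp did not pass (-0.01). Gadd45a, a growth arrest gene that both p53 and ATF4 are known to induce, had 0.34 ± 0.26, adjusted p = 0.401 in S51A and 2.36 in S51 (difference -2.01, adjusted p = 0.00365).

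In the BCL2 family 1 of 9 tested (16 listed) rose and 2 fell. The riser was Pmaip1, and the antiapoptotic Bcl2l1 (-0.62 ± 0.12, adjusted p = 0.000696) and the effector Bok (-1.16 ± 0.17, adjusted p = 4.6e-05) fell. Mcl1, the partner of NOXA, did not pass (0.03). Among 25 tested cyclins and inhibitors (26 listed) 3 rose and 2 fell. Besides Cdkn1a the risers were Cdkn2b (1.18 ± 0.25) and Ccng1 (1.14 ± 0.18), and the fallers Cdkn2d (-0.97 ± 0.24) and Ccne1 (-0.64 ± 0.17). Ccnd1, cyclin D1, lay at 1077, 1142, 1160.3 and 1049 CPM and 703, 765, 773 and 935 CPM, under the fold required (-0.48 ± 0.13, adjusted p = 0.0124). Of 31 mitosis and replication genes 2 fell, Plk1 (-0.70 ± 0.10, adjusted p = 3e-05) and Cdt1 (-0.62 ± 0.17, adjusted p = 0.00942), with a median of -0.19, and Mki67 and Pcna did not pass (0.04 and 0.25). The share that fell was close to the 6.67% of all tested genes.

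Immediate early, inflammatory and growth factor feedback lists held falling members. Of 22 tested (27 listed) AP-1 and immediate early factors 8 fell and 1 rose (median -0.46). Ier2 lay at 62.6, 73.3, 67.2 and 56.99 CPM under vehicle and at 11.9, 17.1, 14.04 and 17.4 CPM under bortezomib (-2.12 ± 0.21, adjusted p = 1.2e-07), and Junb at 265, 265, 239 and 220.1 CPM and 109.9, 95.02, 85.3 and 90.1 CPM (-1.37 ± 0.13, adjusted p = 1.08e-07). The groups were far apart for both. Nr4a1 (-1.39 ± 0.47) and Klf6 (-0.62 ± 0.12) fell too, and the Nr4a1 call was lost in 3 alternatives. Jun was the exception and rose from 14.5, 17.9, 12.9 and 10.7 CPM to 25.8, 43.9, 26.5 and 75.1 CPM (1.61 ± 0.29, adjusted p = 0.000311), with the highest value in replicate 4. Fos did not pass (-0.22).

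Of 16 tested (28 listed) NF-kB factors, targets and chemokines 7 fell and none rose (median -0.30). The neutrophil chemokines Cxcl3 and Cxcl1 fell from 219, 207, 197 and 173 CPM to 47.7, 43.9, 37.4 and 30.6 CPM and from 21.1 to 25.8 CPM to 5.42 to 11.2 CPM (-2.31 ± 0.14, adjusted p = 1.21e-10 and -1.63 ± 0.23, adjusted p = 1.88e-05). Nfkbia, the inhibitor IκBα that the proteasome normally removes, lay at 103, 109, 106 and 94.1 CPM and 49.6, 53.1, 46.8 and 51.8 CPM (-1.03 ± 0.10, adjusted p = 1.23e-07). Tnfaip3 (A20), a feedback inhibitor, lay at 102, 111, 106 and 94.3 CPM and 41.9, 24.9, 37.97 and 40.6 CPM (-1.49 ± 0.13, adjusted p = 2.07e-08). All treated libraries were below the vehicle libraries for these genes. In S51 these inhibitors had 0.11 and -0.09, and the differences were -1.14 (adjusted p = 0.000204) and -1.40 (adjusted p = 0.000448). The subunit Rela did not pass (-0.06), and Relb fell (-1.10 ± 0.18). Summed immune marker RPF was 8.92 to 17.4 CPM under vehicle and 17.4 to 20.3 CPM under bortezomib, mostly Cd68, with Cd3e and Lyz2 at 0. Csf1r had means of 0.42 CPM under vehicle and 3.38 CPM under bortezomib. The part of immune markers in the values of this list was not tested.

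Of 22 tested (29 listed) RAS-MAPK feedback genes and EGF receptor ligands 6 fell and none rose (median -0.39). Besides Dusp6 these included Dusp5 (76.2, 69.3, 56.9 and 56.99 CPM under vehicle, 24.2, 19.005, 19.8 and 18.96 CPM under bortezomib, -1.64 ± 0.17, adjusted p = 2.4e-07), the ligand Hbegf (-1.58 ± 0.21), Spry2 (-1.33 ± 0.37) and the EGF receptor inhibitor Errfi1 (-0.95 ± 0.14). Egfr did not pass (-0.06). In the TGF-β and Notch list, in cells whose Tgfbr2 the study lists as deleted and the labels as floxed, 8 of 26 tested (31 listed) fell and 1 rose (median -0.33). Lfng, a glycosyltransferase that modifies Notch, lay at 67.3, 59.3, 64.7 and 57.6 CPM and 16.4, 13.2, 11.4 and 15.5 CPM (-2.10 ± 0.17, adjusted p = 7.12e-09), and the Notch target Hes1 fell (-1.17 ± 0.22, adjusted p = 0.000443), as did Id3 (-0.86 ± 0.20) and Pmepa1 (-1.12 ± 0.22). Notch1, a receptor and the 1 riser of the list, rose from 262, 270.1, 271 and 239 CPM to 738, 839, 723 and 851 CPM (1.60 ± 0.12, adjusted p = 2.06e-09), whereas Notch2 did not pass (0.09).

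Of 26 tested (30 listed) epidermal identity and differentiation genes 5 fell and 1, the barrier factor Grhl3, rose (0.82 ± 0.28), with a median of -0.10. The Grhl3 call was lost in 7 alternatives, each of which left out 1 S51A RPF library, and in 6 of these no member of the list was called higher. Trp63, the master factor of squamous epithelia, lay at 575, 596, 612 and 590.4 CPM under vehicle and at 272, 289, 289.7 and 302 CPM under bortezomib (-1.04 ± 0.08, adjusted p = 1.94e-09). Every treated library lay far below the vehicle libraries for Trp63. Sox2 (-0.94 ± 0.28), the envelope precursor Ivl (-0.92 ± 0.18), the cross-linking enzyme Tgm1 (-2.16 ± 0.49) and Ovol1 fell too, Tgm1 on 114 vehicle and 17 treated counts. The Sox2 call was lost in 3 alternatives. Of 13 tested (17 listed) epithelial keratins 1 rose, Krt13 (1.01 ± 0.31, adjusted p = 0.0223), a call lost in several alternatives. Krt5, a basal keratin and the most occupied mRNA named here, had 13506, 14694, 13958 and 13863 CPM and 15206, 18055, 16671 and 18108 CPM (0.28 ± 0.07, adjusted p = 0.00384), and Krt14 had 0.15. Neither reached the fold required. Summed RPF of 12 keratinocyte markers, all of them tested, was 34949 to 37489 CPM under vehicle and 36495 to 43002 CPM under bortezomib.

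Among adhesion, tubulin and centrosome genes the called shares were read against the 4.19% of all tested genes that rose and the 6.67% that fell. Of 39 tested (42 listed) integrins and focal adhesion proteins 3 fell and 1 rose (median -0.01), close to those shares. Tns4 lay at 776, 718, 767 and 658 CPM under vehicle and at 354, 338, 356 and 315 CPM under bortezomib (-1.10 ± 0.10, adjusted p = 6.03e-08), Itgb6 and Fermt1 fell (-1.03 ± 0.15 and -0.89 ± 0.15), and Itga5, the fibronectin receptor subunit, rose (0.77 ± 0.19). Itgb1 and Vcl did not pass (0.09 and 0.18). Of 10 tested (14 listed) tubulins Tuba4a (0.67 ± 0.07, adjusted p = 4.01e-07) and Tubb2a (0.61 ± 0.18) rose, and the Tubb2a call was lost in 5 alternatives. γ-tubulin Tubg1 had 105, 89.5, 95.9 and 93.7 CPM and 108, 103, 109.7 and 106 CPM (0.16 ± 0.10, adjusted p = 0.272). Of 53 tested (56 listed) centrosome and centriole components 4 fell and 1 rose (median -0.16). The falls were in Cntrob (-0.98 ± 0.31), Cspp1 (-0.85 ± 0.30), Stil (-0.76 ± 0.18) and Cep68 (-0.64 ± 0.18), of which Cspp1 lost its call in 9 alternatives and Cntrob in 6. Haus8 of the augmin complex rose (0.65 ± 0.15). Pcnt, the pericentrin scaffold, did not pass (0.03 ± 0.14, adjusted p = 0.906). Leaving out 1 of bortezomib replicates 1 or 3 or vehicle replicates 1 or 4 left 2 falling members.

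Cholesterol synthesis genes included a further rising set. Of 27 tested (28 listed) 8 rose and none fell (median 0.46). Insig1, which retains the sterol sensor, lay at 17.3, 21.8, 19.1 and 17.2 CPM under vehicle and at 40.3, 45.3, 45.8 and 42.2 CPM under bortezomib (1.19 ± 0.14, adjusted p = 3.16e-06), and Fdft1, squalene synthase, at 27.1, 43.9, 32.8 and 41.6 CPM and 67.7, 75.04, 76.5 and 83.95 CPM (1.02 ± 0.15, adjusted p = 4.84e-05). The groups were apart in both. Of 74 nuclear-encoded respiratory chain subunits none was called, with a median of 0.14. Of 23 CLK kinases and SR splicing factors Clk1 and Rsrp1 rose (0.76 ± 0.26 and 0.85 ± 0.21), and the Clk1 call was lost in 5 alternatives.

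**Figure D5:**
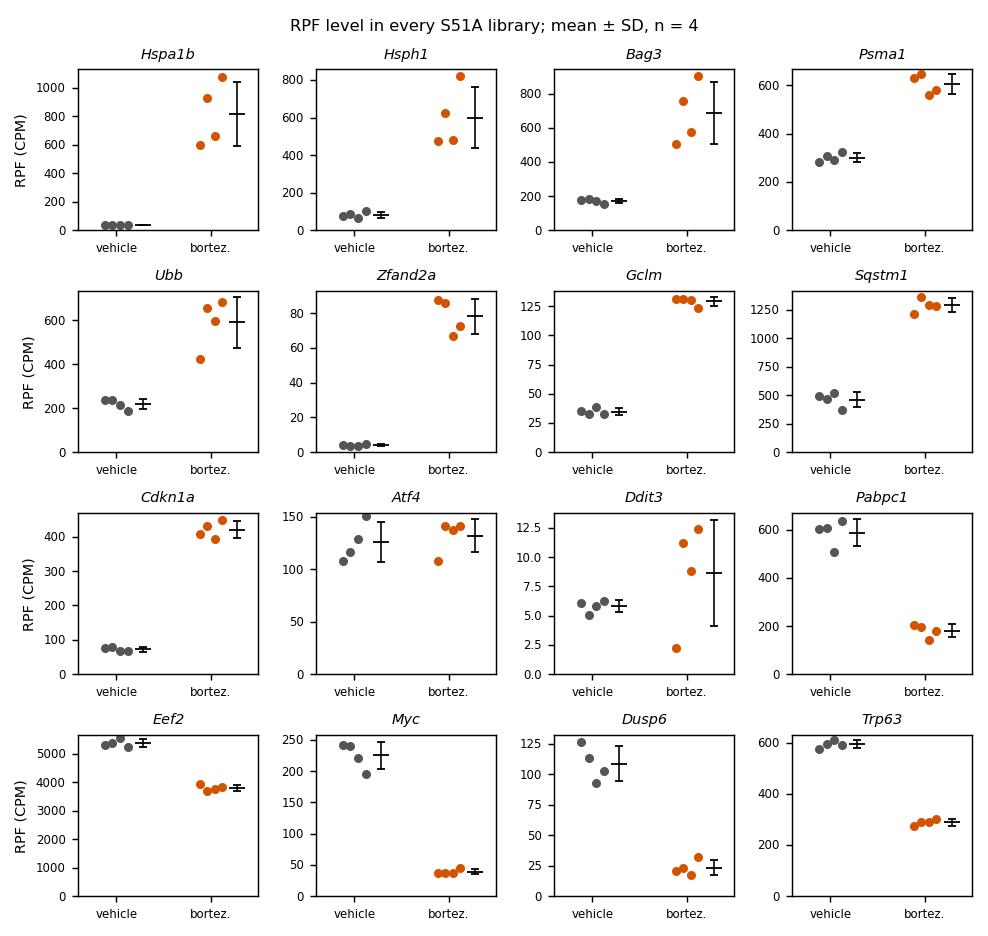
RPF level in CPM on linear axes that start at 0, for genes of the groups described, with 4 vehicle points in grey, 4 bortezomib points in orange and the mean ± SD of each group. The groups are apart in every panel except Atf4 and Ddit3, where they overlap.

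The response of S51A was set against that of S51, which has an intact ISR and in which 698 genes rose (7.38%) and 1059 fell (11.2%) in RPF. Of the 396 genes that rose in S51A and the 698 that rose in S51 277 were shared, and none of the 396 fell in S51. Of the 631 and the 1059 that fell 363 were shared, and 3 of the 631 rose in S51. The difference between the responses was called for 93 genes upward in S51A (0.983%) and 83 downward (0.878%). Of the 93, 86 were genes that fell in S51, and 32 were ribosomal proteins or other TOP mRNAs, of which 97 were tested (1.03% of all genes tested). Of the 83, 48 had risen in S51, and 8 belonged to the ISR lists, of which 64 genes were tested (0.677%). The ISR lists were not alone in this. The mitosis and replication list held 4 of the 83 among 31 tested genes. The NF-kB list held 2 among 16, the AP-1 list 2 among 22 and the cholesterol list 2 among 27. The S51 vehicle group has 3 libraries, and these counts depended on single libraries. Without S51 vehicle replicate 3 they were 210 and 173, without S51 vehicle replicate 2 the downward count was 154, and without S51 bortezomib replicate 3 they were 57 and 42. They were 60 and 49 without S51A vehicle replicate 2 and 59 and 50 without S51A vehicle replicate 4. The downward count was 49, 54 and 53 without S51A bortezomib replicate 2, 3 or 4, and 53 without S51 bortezomib replicate 4.

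Relative to the other mRNAs, TOP mRNAs with a called difference lost fewer footprints in S51A. Eef2 had -0.50 in S51A and -1.63 in S51 (difference 1.13 ± 0.10, adjusted p = 1.27e-06), and Eef1a1 -0.63 and -1.57 (difference 0.94, adjusted p = 4.05e-05). For Rpl27a the difference was 0.87 (adjusted p = 4.45e-05), and for Pabpc1 0.72 (adjusted p = 0.018). Of the large subunit genes 14 and of the small subunit genes 13 had a called difference, all in this direction. Other genes with a larger value in S51A were Nrarp (-0.26 against -2.49), a Notch feedback gene, Eif4ebp2 (-0.20 against -1.65), a repressor of cap-dependent initiation, and Mknk2 (-0.05 against -1.25), an eIF4E kinase. Gadd45g was the 1 gene of the 93 that was called higher in S51A (1.29 ± 0.19, S51 0.09, difference 1.20, adjusted p = 0.0245).

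Beyond the ISR genes, smaller values in S51A were found for Ovol1 (-2.69 against 0.03, adjusted p = 0.00841), Arid5a (-1.29 against 0.37), Klf6 (-0.62 against 0.19) and Cspp1 (-0.85 against 1.06), a centrosomal protein. Ckap5, a microtubule polymerase, had -0.09 ± 0.12, adjusted p = 0.642 in S51A and 0.70 in S51 (difference -0.79, adjusted p = 0.0191), and Tubb5 had 0.08 and -0.69 (difference 0.77, adjusted p = 0.00058). Pxdn, a peroxidase of the matrix, had 2.32 to 4.26 CPM under S51A vehicle and 2.08 to 5.42 CPM under bortezomib. Its difference of -3.89 rests on S51 vehicle libraries at 0 to 0.354 CPM. No HSP70, HSP90, J-domain or small heat shock gene had a called difference, and among chaperonins Pfdn5 had one (0.59, adjusted p = 0.0245), a call lost in 11 alternatives. Hspa1b gave 4.49 and 4.96 (-0.47, adjusted p = 0.379), and Hsph1 2.85 and 2.76 (0.10, adjusted p = 0.887), and no proteasome subunit had one.

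RPF totals on genes ran from 2148831 to 4902237 in S51A vehicle and from 1955554 to 3175443 in S51A bortezomib, and total RNA totals from 18758668 to 22075557. By quartile of mean count the median standard error of the log2 fold change was 0.27, 0.18, 0.13 and 0.10 from the lowest to the highest, so changes near 1.5-fold are the least certain in the lowest quartile (means up to 41.5 counts). Calls were spread over the quartiles (105, 104, 92 and 95 higher, 200, 207, 125 and 99 lower). Fibroblast, endothelial and melanocyte markers summed to at most 9.99, 5.03 and 1.46 CPM in any S51A library, with Col1a2, Dcn, Cdh5, Tek, Dct and Mlana at 0. The fibroblast sum was mostly Pdgfra, with means of 6.43 CPM under vehicle and 6.81 CPM under bortezomib. The endothelial sum was mostly Kdr (1.59 and 2.74 CPM).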

How the data were processed

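Ribosome-protected fragments (15 libraries) and total RNA (16 libraries) of S51 and S51A cells with bortezomib or vehicle were used. The deposited tables hold raw counts per gene. Per the study's methods the authors trimmed the reads, aligned them with Bowtie2 to mm10 and counted coding-sequence footprints of set lengths without the ends of the reading frame. The column names say that repeats and rRNA were masked or removed, duplicates flagged and unique alignments retained, and that total RNA runs were merged. The submitters' processing notes also list featureCounts and DESeq2. Counts of uniquely mapped reads under-represent genes with near-identical copies.

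Genes were kept by edgeR's filterByExpr (minimum count 10) over the libraries of each kind. TMM-scaled counts of all 4 groups were fitted by quasi-likelihood in edgeR 4.0.16 (limma 3.58.1, R 4.3.3), with the S51A contrast, the difference from the S51 contrast and, in 1 model over both kinds of library, the TE interaction as tests. Calls needed an adjusted p of 0.05 and 1.5-fold (total RNA 2-fold). Alternatives were DESeq2 1.42.0, other scalings and filters, S51A libraries alone, replicate blocks and each library left out. The fits were tested on simulated data. Gene members, the 39 lists (1055 entries, 1 unmatched) and tests were chosen with earlier results of these data known. Named genes were the 12 largest called changes each way without overlap, up to 5 called and 2 uncalled members per list with its core members, 6 TE genes and 8 genotype differences each way. Some genes that this rule names are not reported here. Hspa2, Hspa4l, Dnajb14, Grhl3, Pfdn5, Rps6 and Eif3f were named after their values were seen. Same-numbered S51A total RNA libraries deviated together (correlations 0.200, 0.140, 0.114 and 0.321, each highest with its own number), and a block on the number gave 192 higher and 300 lower genes. Promoter sequences are RefSeq's for GRCm38.p6, matched by gene identifier for 7717 of 9457 genes. Intervals on ratios cover counting error only.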

Additional observations from a re-analysis of the deposited data

Results flagged for a closer look

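In 23 of 410 groups of 4 S51A RPF libraries, over 205 genes, the highest or lowest library stood apart, with a gap to its nearest neighbour above Dixon's 95% critical share of the group's range. Chance gives about 1 in 20 groups. Bortezomib replicate 1 accounted for 11 of them. It was the highest for Psmd14 (0.90001), Rps27a (0.988), Rpl27a (0.835), Rps27 (0.928), Eef1a1 (0.886), Dusp5 (0.845), Stil (0.931), Pcnt (0.874) and H2-Bl (0.837), the gap as a share of the range being given in parentheses, and the lowest for Psmb3 (0.835) and Atf4 (0.88005). Several of these are ribosomal protein or TOP mRNAs, for which this library was the highest treated one in most members. Among the other bortezomib libraries the same was found for Psmd11 (highest in replicate 3, 0.8295), Mtf1 (highest in replicate 4, 0.855), Myc (highest in replicate 4, 0.954) and Grhl3 (lowest in replicate 4, 0.8397). Among vehicle libraries it was found for Hspa1l (highest in replicate 4, 1), Gclc (lowest in replicate 4, 0.921), Rpl27a (highest in replicate 1, 0.929), Rpl6 (lowest in replicate 4, 0.909), Cdt1 (highest in replicate 1, 0.909), Klf6 (highest in replicate 1, 0.856), Tgm1 (highest in replicate 3, 0.843) and Cep68 (lowest in replicate 2, 0.858). Hspa1l had 2 counts in that library and 0 in the others.

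Of the genes named in the text, 42 were examined by the test of the difference itself. They include the 8 genes each way that were named because that test called them. The RPF response differed between the genotypes for 36 of the 42, a count that this choice partly fixed. Over all genes tested 0.983% had a larger and 0.878% a smaller response in S51A. Values are the S51A minus the S51 log2 fold change. Among ISR genes they were Atf4 (-1.40), Atf5 (-1.42), Ddit3 (-2.42), Ppp1r15a (-2.12), Chac1 (-1.59), Slc38a2 (-0.59) and Gadd45a (-2.01), all smaller in S51A. Among ribosomal protein and other translation mRNAs they were Rpl27a (0.87), Rps18 (0.85), Pabpc1 (0.72), Eef1b2 (0.76), Eef1a1 (0.94) and Eef2 (1.13), all larger in S51A. The other genes with a larger value in S51A were Tubb5 (0.77), Nrarp (2.23), Eid2 (1.70), Eif4ebp2 (1.45), Esrra (1.42), Mast2 (1.37), Flt3l (1.23), Mknk2 (1.20), Gadd45g (1.20) and Pfdn5 (0.59). Those with a smaller value were Zfand2a (-1.47), Hmox1 (-0.75), H2aw (-0.77), Gadd45a (-2.01), Junb (-0.92), Klf6 (-0.81), Tnfaip3 (-1.40), Nfkbia (-1.14), Ovol1 (-2.72), Cspp1 (-1.91), Ckap5 (-0.79), H2-Bl (-4.57), Pxdn (-3.89) and Arid5a (-1.66). The S51 response rests on 3 vehicle libraries, and calls on Slc38a2, Zfand2a, Nrarp, Pfdn5, Arid5a, Eid2 and Cspp1 were lost in 8 or more alternatives each.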

How the results depend on the processing

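Across DESeq2, other scalings, filters and S51A libraries alone, 351 to 423 genes rose and 538 to 707 fell in S51A RPF, and leaving out 1 S51A library gave 350 to 403 and 530 to 579. DESeq2 called 388 of the 396 and 572 of the 631. Genes needing an RPF call and a TE change numbered 6 higher and 35 lower, against 20 and 61, where a mean of 20 counts was required, a setting that tests fewer genes. With 1 library left out they ran from 13 to 25 higher and from 53 to 97 lower, the last without S51A bortezomib replicate 1. The difference from S51 moved with single libraries. Without a filter 125 genes had a smaller response in S51A, against 83, in a larger set of tested genes. With 1 library left out the larger responses ran from 57 to 210 and the smaller from 42 to 173. The cause was not tested. No direction of a named gene's called change turned in any alternative run. The RPF call was lost in 76 and gained in 8 refits of named genes, the TE call lost in 21 and gained in 1, the call on the difference lost in 96 and gained in 11, and each was kept in the rest. With a block on the lysate the TE calls of Rps27, Alkbh1 and Fut8 were lost. Changes near 1.5-fold of genes with few counts are limited by depth.

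S51A RPF libraries share replicate numbers, but their deviations from the group means correlated at 0.073, 0.053, 0.034 and -0.001 for numbers 1 to 4 and only replicate 1 correlated best with its own number, so they were not treated as paired. With a replicate block 411 genes rose and 640 fell in RPF, TE was called for 10 and 87, and the difference from S51 for 82 and 96.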
